A study of Mus musculus and Homo sapiens
Mus musculus with 16 samples.

Results

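The Id genes Id1, Id2, Id3 and Id4 encode small helix-loop-helix proteins, and their promoter contacts were examined in the forebrain of mouse fetuses at stages E16.5 and E12.5, named for days of embryonic development. The members were found by position: every deposited interaction in which either of its bins of 10 kb overlapped the body of an Id gene in the mouse genome build mm10 was taken. All 4 genes had at least 1, and together they took 151 of the 58543 bin pairs listed in any library. The data were H3K4me3 PLAC-seq, in which stretches of DNA that neighbour each other inside the nucleus are ligated, and the ligation products that carry H3K4me3, a histone mark of active and poised promoters, are enriched with an antibody. There were 2 libraries of E16.5 forebrain and 2 of E12.5 forebrain, which are 4 of the 16 samples of the series; the other 12 are single-cell libraries and were not analysed here. The tissue had been frozen and was fixed with formaldehyde and cut with MboI. No mutation or treatment is named for either stage. The sources used here give no strain, litter or pooling for the fetuses, so p-values measure the spread between these libraries, which may be technical. The protocol text attached to E12.5 replicate 1 describes dissection of adult cortex, although its title and tissue label give E12.5 forebrain; the title was followed.

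Id proteins carry the helix-loop-helix domain by which basic helix-loop-helix (bHLH) factors pair, but lack the basic stretch that holds DNA. They bind E proteins, the common partners of proneural bHLH factors, and so keep those partners from acting together on E-box sequences. In the developing forebrain they are known for keeping neural progenitors from early differentiation, and Id1, Id2 and Id3 are classic target genes of bone morphogenetic protein (BMP) signalling through Smad proteins.

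The 250 bases before the RefSeq start (GRCm38.p6, the assembly that mm10 is built on) are printed for Id2, Id3 and Id4, because these bins anchor every contact described for those genes. Capitals mark matches to GGCGCC or GTCTAGAC, which are Smad elements, and to CANNTG, the E-box; each of these motifs reads the same on both strands. The Id2 stretch is chr12:25096093-25096342 on the minus strand, the Id3 stretch is chr4:136143572-136143821 on the plus strand, and the Id4 stretch is chr13:48260866-48261115 on the plus strand.
Id2: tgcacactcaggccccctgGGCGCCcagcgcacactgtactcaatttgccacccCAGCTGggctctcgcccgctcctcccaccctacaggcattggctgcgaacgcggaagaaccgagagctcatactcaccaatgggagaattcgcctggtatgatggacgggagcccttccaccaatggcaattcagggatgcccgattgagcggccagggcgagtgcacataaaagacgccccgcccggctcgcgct
Id3: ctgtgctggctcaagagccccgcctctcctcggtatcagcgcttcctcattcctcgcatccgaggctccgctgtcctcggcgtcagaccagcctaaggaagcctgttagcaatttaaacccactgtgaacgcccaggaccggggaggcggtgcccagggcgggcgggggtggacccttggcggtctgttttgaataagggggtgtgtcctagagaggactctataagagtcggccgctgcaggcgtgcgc
Id4: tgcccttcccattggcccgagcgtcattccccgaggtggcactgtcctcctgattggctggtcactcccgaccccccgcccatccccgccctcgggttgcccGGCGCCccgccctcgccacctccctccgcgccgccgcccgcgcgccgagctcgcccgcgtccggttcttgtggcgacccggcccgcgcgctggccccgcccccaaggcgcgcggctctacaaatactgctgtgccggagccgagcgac
GGCGCC stood 231 bases before the Id2 start and 148 bases before the Id4 start, and 9.59% of 32851 mouse promoters hold it in a window of this length. An E-box with the letters CAGCTG stood 196 bases before the Id2 start, and 66.2% of the promoters hold a CANNTG. GTCTAGAC was in none of these 3 windows and in 0.167% of all promoters. The GC content was 62.8% for Id2, 62.8% for Id3 and 75.6% for Id4.

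The E16.5 libraries listed 35291 and 36794 interactions with 892987 and 911710 read pairs, against 18413 and 16075 interactions with 446855 and 405491 read pairs in the E12.5 libraries. Listed interactions spanned 20 to 1000 kb, with at least 2 times the read pairs that the authors' model expected. The sequencing depth behind the lists is unknown. An unlisted pair of bins may therefore still be in contact, and the E16.5 lists are the longer ones. The 11 forebrain marker genes were each listed, with summed interactions of 215 to 243 at E16.5 and 206 to 211 at E12.5. Of these 11, 3 were called lower at E16.5 and 1 higher in the test of number below. The sums were 14 to 20 at E16.5 and 31 to 48 at E12.5 for 8 hindbrain and spinal cord genes. Hoxb1 and En2 among them were at 0 in every library. Of the 6 that were tested, 3 were called lower and 0 higher, beside 2.21% of all bins called lower. Hoxb4 had 5 and 1 at E16.5 and 15 and 11 at E12.5. Pax2 had 0 and 1 against 8 and 8, and Hoxb2 had 0 and 0 against 8 and 2. All 3 reached the sum of at least 10 needed for testing only through the E12.5 libraries. Summed interactions were 2 to 5 at E16.5 and 6 to 11 at E12.5 for 5 choroid plexus genes. Otx2, the only 1 of these 5 tested, was called lower, with 1 and 0 at E16.5 and 9 and 4 at E12.5. The sums were 10 to 23 at E16.5 and 18 in each E12.5 library for 8 meningeal and mesenchymal genes. For 6 microglial genes they were 1 to 3 at E16.5 and 4 to 6 at E12.5. Of 10 endothelial genes, 8 had no listed interaction in any library, Pecam1, Cdh5 and Kdr among them, and the summed interactions were 0 to 1 at E16.5 and 1 to 2 at E12.5. The part of these other cell types in the Id values was not tested. In bulk tissue, fewer cells that hold a contact and less contact per cell cannot be told apart.

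Id2 and Id4 were hubs of long-range contact at both stages, while Id1 and Id3 had almost none. Id2 had 54 and 55 listed interactions in the E16.5 libraries, against 19 and 15 in the E12.5 libraries. Id4 had 55 and 57 in the E16.5 libraries, against 41 and 48 in the E12.5 libraries. Id3 had 3 and 1 at E16.5 and 2 and 1 at E12.5, and Id1 had 1 and 2 at E16.5 and 0 and 1 at E12.5. The order was therefore Id4 and Id2 level at E16.5, where their values meet at 55, and Id4 above Id2 at E12.5 with no overlap. The values of Id3 and Id1 overlapped at both stages. Among bins that hold an end of a protein-coding gene, only 15 and 24 bins had more listed interactions than Id2 in the E16.5 libraries, against 76 and 120 in the E12.5 libraries. For Id4 the same counts were 12 and 18 at E16.5 and 9 and 8 at E12.5, out of 7253 and 7698 such bins with any listed interaction at E16.5 and 4547 and 4140 at E12.5.

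**Figure D1:**
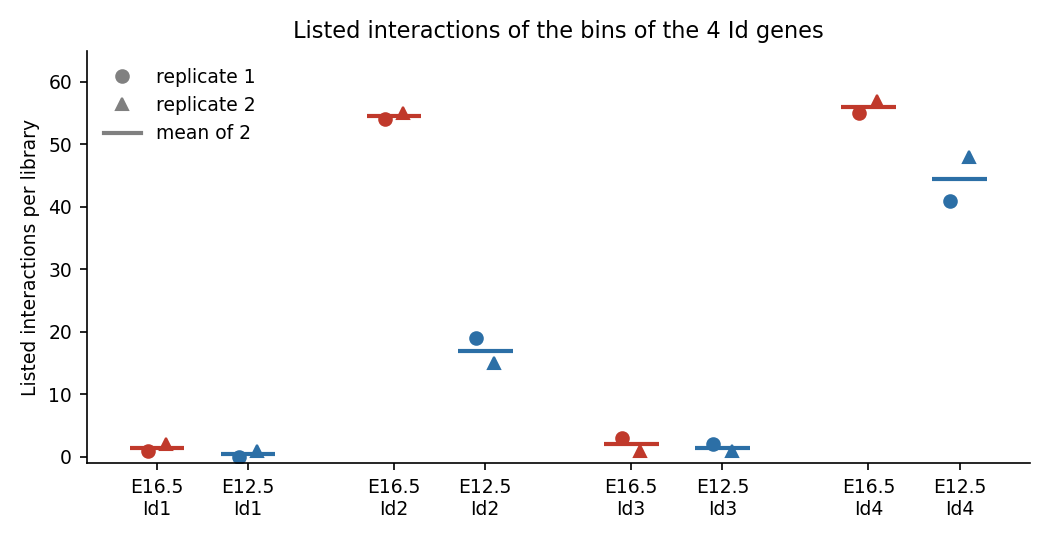
Listed interactions per library (vertical axis, number) for the bins of Id1, Id2, Id3 and Id4, with E16.5 left of E12.5 for each gene; points are the libraries and lines the means of 2. Id2 reaches 54 and 55 at E16.5 and stays at 19 and 15 at E12.5, while the Id4 values of 55 and 57 at E16.5 and 41 and 48 at E12.5 lie closer together.

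The Id2 bin gained interactions by more than the E16.5 lists gained as a whole, and the Id4 bin did not. The number per bin was tested with edgeR's quasi-likelihood test over 2448 gene-end bins with at least 10 interactions over the 4 libraries. Id2 averaged 54.5 ± 0.707 at E16.5 and 17.0 ± 2.83 at E12.5 (SD, n = 2 each), a ratio of 3.21 before scaling. After TMM scaling, which was computed over the tested bins, the log2 change was 0.93 (SE 0.21, edgeR adjusted p = 0.0266). The median over all bins tested was 0.19. Of all bins, 9.68% were called, 7.48% as higher and 2.21% as lower at E16.5. Before scaling, each E16.5 value exceeded each E12.5 value in 59.0% of the bins, and the opposite held in 4.17%. Id4 averaged 56.0 ± 1.41 at E16.5 and 44.5 ± 4.95 at E12.5, with a scaled log2 change of −0.41 (SE 0.17, edgeR adjusted p = 0.192). Id1 and Id3, with 4 and 7 interactions over all libraries, were too sparse to test. The Id2 call rests on the scaling and on each library. Scaling by each library's total over the tested bins, without TMM, gave a log2 change of 0.75 and no call. Leaving out any 1 of the 4 libraries gave 0.79 to 1.08 and no call. The call was also lost with DESeq2 (0.97), and with each cluster of adjoining interactions counted once the change was −0.34.

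Id2 lies at chr12:25093799-25096092 on the minus strand, at the edge of a gene desert. The nearest protein-coding gene on the higher-coordinate side, which is upstream of Id2, is Rnf144a, 1211 kb away; on the other side Kidins220 lies 30.7 kb away. Every listed Id2 interaction in all 4 libraries pointed upstream into the desert. There were 67 partner bins, and none overlapped a protein-coding gene. Position fixed this for partners on the upstream side, since listed interactions reach at most 1000 kb and Rnf144a lies farther away. Of the 67, 21 overlapped a noncoding RefSeq gene, such as the long noncoding RNA (lncRNA) genes Gm36723 and Gm29835. Over the whole lists, 35.5% of 49647 partner bins of gene ends overlapped no protein-coding gene, a share given as background only. Of the 67 Id2 partner bins, 31 took part in any interaction with a bin other than that of Id2.

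The Id2 contacts at E16.5 formed a dense row along the desert, and those at E12.5 a sparser subset of it. Of 65 partner bins listed in any E16.5 library, 36.9% were also listed at E12.5, and of 26 listed in any E12.5 library, 92.3% were also listed at E16.5. Both E16.5 libraries and neither E12.5 library listed 27 partner bins, 240 to 960 kb from Id2 with a median of 630 kb. The 3 with the most read pairs lay 270 kb away with 28 and 26 read pairs in the E16.5 libraries, 240 kb away with 26 and 27, and 280 kb away with 20 and 29. The reverse held for 1 bin, 320 kb away, with 14 and 14 read pairs in the E12.5 libraries. The longer E16.5 lists favour such a difference for any gene. The share of such pairs over all 58543 bin pairs was not taken, so the counts describe Id2 alone. The E16.5 libraries shared 44 Id2 partners, 81.5% and 80.0% of their lists, and the E12.5 libraries shared 8, which were 42.1% and 53.3% of theirs.

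**Figure D2:**
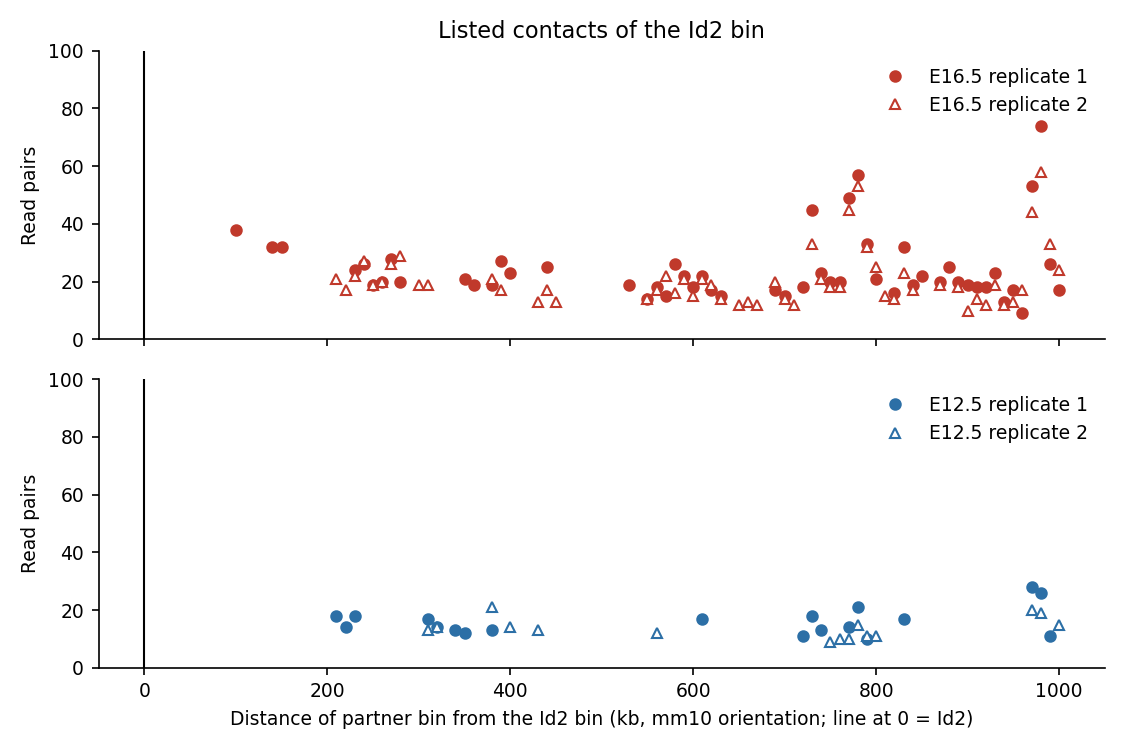
Read pairs of each listed Id2 contact (vertical axis) against the distance of its partner bin from the Id2 bin in kb (horizontal axis), with E16.5 in the upper panel and E12.5 in the lower; filled circles are replicate 1 and open triangles replicate 2. The contacts run upstream to 1000 kb, and at 980 kb the read pairs reach 74 and 58 at E16.5 and 26 and 19 at E12.5.

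Contact strength was tested on the read pairs of the 6875 bin pairs listed in all 4 libraries, of which edgeR's quasi-likelihood test called 10.5%, with 5.88% higher and 4.58% lower at E16.5. Id2 had 6 such contacts: 4 rose, none fell and 2 did not pass, with a median log2 change of 1.21, beside −0.01 over all contacts tested. Before scaling, each E16.5 value exceeded each E12.5 value in 5 of the 6, as it did in 50.7% of all contacts.

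Of the 6 Id2 contacts listed in all 4 libraries, the farthest also had the most read pairs. It joined Id2 to chr12:26070001-26080000, 980 kb upstream, with 74 and 58 read pairs at E16.5, against 26 and 19 at E12.5 (log2 change 1.18, SE 0.26, edgeR adjusted p = 0.00153). Its read pairs were 19.8 and 15.8 times the authors' expected count at E16.5, and 12.0 and 9.39 times at E12.5. The adjoining bin at 970 kb had 53 and 44 read pairs at E16.5 and 28 and 20 at E12.5, with no overlap between the stages, yet its log2 change of 0.65 did not pass (SE 0.27, edgeR adjusted p = 0.114). A second group of bins stood at 770 to 790 kb. The bin at chr12:25870001-25880000, 780 kb away, had 57 and 53 read pairs at E16.5, against 21 and 15 at E12.5 (log2 change 1.24, SE 0.28, edgeR adjusted p = 0.00163). At 770 kb there were 49 and 45 read pairs at E16.5 and 14 and 10 at E12.5, a log2 change of 1.60 (SE 0.30, edgeR adjusted p = 0.000175). At 790 kb there were 33 and 32 read pairs at E16.5 and 10 and 11 at E12.5, a log2 change of 1.26 (SE 0.31, edgeR adjusted p = 0.00536). The stages did not overlap in any of these 3 bins. The nearest contact in all 4 libraries, at 380 kb in a bin that overlaps Gm36723, had 19 and 21 read pairs at E16.5 and 13 and 21 at E12.5, and its groups overlapped (log2 change −0.13, SE 0.30, edgeR adjusted p = 0.863).

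The authors' expected count for the 6 Id2 contacts was itself higher at E16.5, with a median ratio of 1.91 to E12.5, beside 1.17 over all 6875 contacts. With that expected count as an offset none of the 6 passed, their median log2 change was 0.28, and the contact at 970 kb changed sign to −0.32; over all contacts the median was −0.28 in that fit. DESeq2 called none of the 6, and 3 of them had no adjusted p there. Leaving out E12.5 replicate 2 left 1 call of 4, at 770 kb, and leaving out E12.5 replicate 1 left 3, with the contact at 790 kb no longer passing.

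Id4 lies at chr13:48261116-48266028 on the plus strand, inside a gene desert. Its nearest protein-coding neighbours are Rnf144b, 1013 kb upstream, and Zfp169, 215 kb downstream. Of its interactions, 53 and 54 pointed upstream at E16.5 and 39 and 44 at E12.5, and 2 and 3 pointed downstream at E16.5 and 2 and 4 at E12.5. None of its 79 partner bins overlapped a protein-coding gene, and 35 overlapped a noncoding RefSeq gene. Upstream, position fixed this, since listed interactions reach at most 1000 kb and Rnf144b lies farther away. Downstream, the farthest partner lay 210 kb away, short of Zfp169. Of these 79 bins, 25 took part in any interaction with a bin other than that of Id4.

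Most Id4 contacts were shared by the stages. Of 71 partner bins listed at E16.5, 67.6% were also listed at E12.5, and of 56 listed at E12.5, 85.7% were also listed at E16.5. All 4 libraries listed 21 bins, both E16.5 libraries and neither E12.5 library listed 9, and both E12.5 libraries and neither E16.5 library listed 5. Here too the E16.5 lists are the longer ones, and the share of such pairs over all bin pairs was not taken. The E16.5 libraries shared 41 Id4 partners, 74.5% and 71.9% of their lists, and the E12.5 libraries shared 33, 80.5% and 68.8% of theirs.

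The contacts of Id4 listed in a single stage lay at different distances. The 9 in E16.5 alone were 350 to 890 kb from Id4, with a median of 700 kb, and those with the most read pairs were at 350 kb (36 and 34 in the E16.5 libraries), 360 kb (19 and 33) and 710 kb (20 and 24). The 5 in E12.5 alone were 150 to 220 kb away, with a median of 170 kb. Their most frequent were chr13:48090001-48100000 at 170 kb with 51 and 56 read pairs in the E12.5 libraries, the bin at 160 kb with 52 and 37, and the bin at 150 kb with 41 and 37. All 5 overlap the lncRNA gene A330033J07Rik, at chr13:48044231-48262623, which reaches from this stretch into the Id4 bin. Position fixed this overlap, since any upstream partner up to 220 kb from Id4 lies in this gene. The values below therefore describe the near upstream stretch and do not single out the lncRNA gene. This gene was singled out after its values were seen. Over the 14 Id4 partner bins that overlap it, 90 to 220 kb from Id4, there were 3 and 8 listed interactions at E16.5, against 12 and 13 at E12.5. They held 148 and 295 read pairs at E16.5, against 595 and 594 at E12.5. Unlisted bins add nothing to these sums, which therefore largely follow the numbers listed. Where all 4 libraries had values the gap was smaller. There were 53 and 39 read pairs at E16.5 against 74 and 58 at E12.5 at 90 kb, and 48 and 37 against 72 and 64 at 110 kb. At 130 kb the groups overlapped. No share over other stretches was taken.

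**Figure D3:**
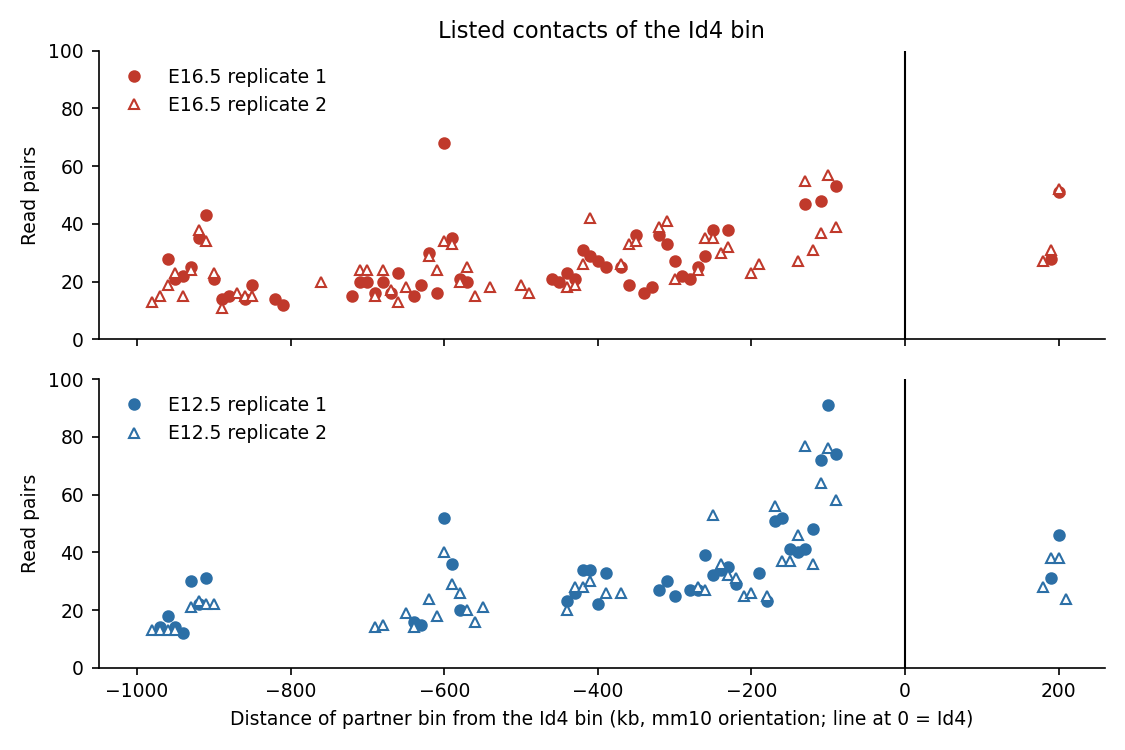
Read pairs of each listed Id4 contact (vertical axis) against the distance of its partner bin from the Id4 bin in kb (horizontal axis, negative is upstream), with E16.5 in the upper panel and E12.5 in the lower; filled circles are replicate 1 and open triangles replicate 2. The stretch 150 to 220 kb upstream is filled at E12.5 and sparse at E16.5, while groups near 600 and 920 kb upstream appear in every library.

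By distance, listed Id4 interactions within 200 kb numbered 5 and 11 at E16.5, against 13 and 14 at E12.5. From 210 to 500 kb there were 22 and 17 at E16.5 and 16 and 14 at E12.5. From 510 to 800 kb there were 15 and 16 at E16.5 and 5 and 12 at E12.5, and from 810 to 1000 kb 13 and 13 at E16.5 and 7 and 8 at E12.5. Before scaling, the near window was thus lower at E16.5 and the other 3 windows higher, with no overlap between the stages in any of the 4. The lists as a whole were longer at E16.5 in every window, however. The ratio of E16.5 to E12.5 was 0.593 for Id4 and 1.79 for all listed interactions within 200 kb, 1.30 for Id4 and 2.13 for all from 210 to 500 kb, 1.82 for Id4 and 2.57 for all from 510 to 800 kb, and 1.73 for Id4 and 2.66 for all from 810 to 1000 kb. Id4 was therefore below the ratio of the whole lists in each window, and farthest below it within 200 kb. The median Id4 distance was 570 and 540 kb at E16.5, against 300 and 400 kb at E12.5. The mean of the medians was 205 kb longer at E16.5 (555 ± 21.2 kb at E16.5 and 350 ± 70.7 kb at E12.5, SD, n = 2 each); an exact two-sided permutation test gave p = 0.333, the smallest that 2 libraries against 2 allow. Over whole libraries the median distance was 300 and 290 kb at E16.5 and 260 kb in each E12.5 library. With only the summit of each cluster kept, the Id4 difference was −20 kb.

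Id2 had more listed interactions at E16.5 in the 3 windows beyond 200 kb, before scaling. It had 12 and 15 interactions at E16.5 and 8 and 5 at E12.5 from 210 to 500 kb, 21 and 23 at E16.5 and 7 and 7 at E12.5 from 510 to 800 kb, and 18 and 17 at E16.5 and 4 and 3 at E12.5 from 810 to 1000 kb. The ratio of E16.5 to E12.5 was 2.08 for Id2 from 210 to 500 kb, near the 2.13 of the whole lists. It was 3.14 for Id2 from 510 to 800 kb and 5.0 from 810 to 1000 kb, above the 2.57 and 2.66 of the whole lists; these ratios were not tested. Within 200 kb Id2 had 3 in E16.5 replicate 1 and none in the other libraries. Its median distance was 710 and 690 kb at E16.5, against 720 and 760 kb at E12.5, a difference of −40 kb (exact two-sided permutation p = 0.333). Both hubs therefore reached farther than the typical interaction at each stage.

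**Figure D4:**
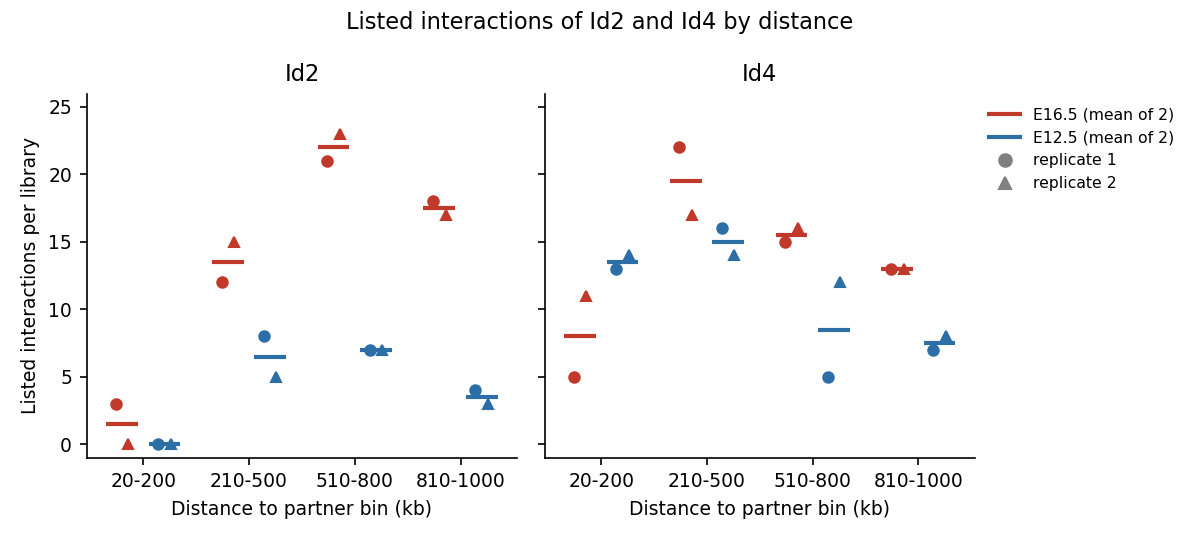
Listed interactions per library (vertical axis, number) of Id2 and Id4 in 4 windows of distance to the partner bin (horizontal axis, kb), with E16.5 left of E12.5; points are libraries and lines means of 2. Id2 is higher at E16.5 in every window beyond 200 kb, and Id4 is lower at E16.5 within 200 kb (5 and 11 at E16.5, 13 and 14 at E12.5).

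Of the 21 Id4 contacts listed in all 4 libraries, none rose, 2 fell and 19 did not pass, beside 5.88% of all contacts called higher and 4.58% called lower. The log2 changes ran from −1.04 to 0.34 with a median of −0.42, and 17 were below 0. Before scaling, each E16.5 value exceeded each E12.5 value in 5 of them and lay below each in 4, beside 50.7% and 7.87% of all contacts.

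The 2 that fell lie near Id4 on the upstream side, in the stretch that A330033J07Rik spans. At chr13:48150001-48160000, 110 kb upstream, there were 48 and 37 read pairs at E16.5, against 72 and 64 at E12.5, which is 2.06-fold lower at E16.5 (log2 change −1.04, SE 0.23, edgeR adjusted p = 0.00170). At 90 kb there were 53 and 39 at E16.5, against 74 and 58 at E12.5, which is 1.84-fold lower (log2 change −0.88, SE 0.23, edgeR adjusted p = 0.00814). At 130 kb the groups overlapped, with 47 and 55 at E16.5 and 41 and 77 at E12.5 (log2 change −0.57, SE 0.25, edgeR adjusted p = 0.138). Both calls were lost with DESeq2 and with the authors' expected count as an offset. The call at 90 kb was also lost without E16.5 replicate 2 (−0.72) and without E12.5 replicate 1 (−0.73). In the last of these fits the contact at 130 kb passed (−0.98).

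Farther contacts of Id4 did not pass. At chr13:47660001-47670000, 600 kb upstream in a bin that overlaps the noncoding gene 4930471G24Rik, there were 68 and 34 read pairs at E16.5 and 52 and 40 at E12.5 (log2 change −0.22, SE 0.25, edgeR adjusted p = 0.663). The bin 200 kb downstream had 51 and 52 at E16.5 and 46 and 38 at E12.5 (log2 change −0.07, SE 0.24, edgeR adjusted p = 0.903), and the bin 250 kb upstream had 38 and 35 at E16.5 and 32 and 53 at E12.5 (log2 change −0.58, SE 0.26, edgeR adjusted p = 0.154). The highest ratio to the expected count at E16.5 was that of the bin 920 kb upstream, at 10.9 and 12.4 at E16.5 and 7.05 and 7.06 at E12.5. The 4 contacts with a change above 0 all lay 910 to 960 kb upstream. Within 200 kb the 5 Id4 contacts had a median log2 change of −0.59, beside −0.09 over 2335 contacts at that distance. From 210 to 500 kb the 8 Id4 contacts had a median of −0.45, beside 0.01 over 3058 contacts, and from 510 to 800 kb the 3 Id4 contacts had −0.30, beside 0.11 over 1085. From 810 to 1000 kb the 5 Id4 contacts had a median of 0.24, beside 0.13 over 397 contacts. The authors' expected count for the 21 contacts had a median ratio of E16.5 to E12.5 of 0.933, beside 1.17 over all 6875 contacts. With that expected count as an offset, 0 of the 21 passed. Their median log2 change in that fit was −0.35, near the −0.28 over all contacts.

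**Figure D5:**
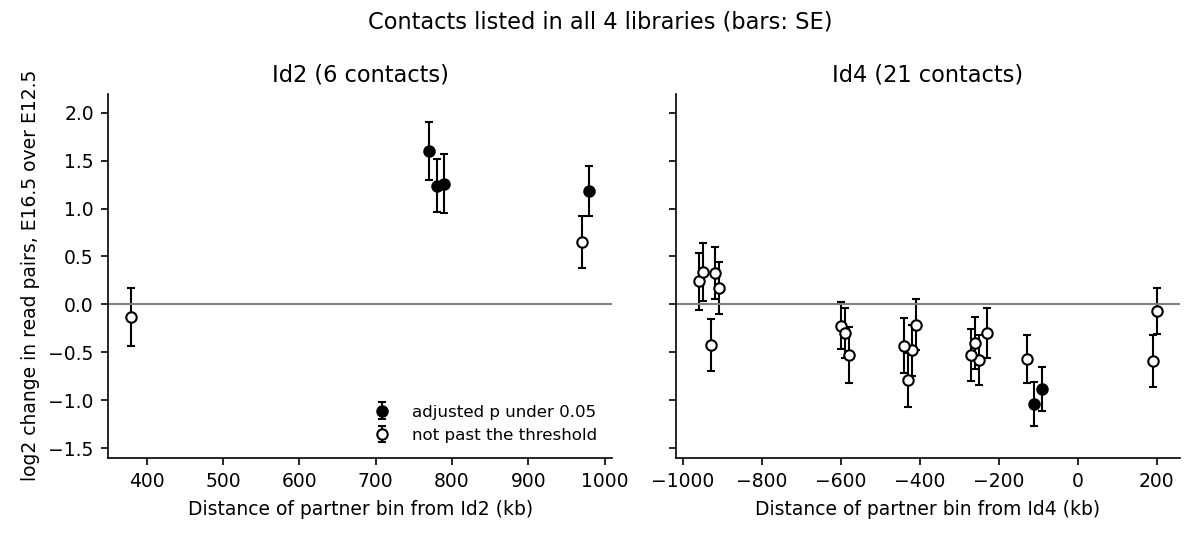
Log2 change in read pairs at E16.5 relative to E12.5 (vertical axis, after scaling, bars are SE) of the contacts listed in all 4 libraries against distance from the gene in kb (horizontal axis), with 6 contacts of Id2 and 21 of Id4. The Id2 contacts beyond 700 kb lie between 0.65 and 1.60, and the Id4 contacts between −1.04 and 0.34.

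Id3 had a single contact in all 4 libraries, and it fell. Id3 lies at chr4:136143822-136145392 on the plus strand, 26.9 kb from E2f2 and 90.4 kb from Rpl11, which encodes a protein of the large ribosomal subunit. The contact joined it to chr4:136070001-136080000, 70 kb upstream, where no protein-coding gene lies, with 64 and 57 read pairs at E16.5, against 78 and 91 at E12.5. It was 1.80-fold lower at E16.5 (log2 change −0.85, SE 0.22, edgeR adjusted p = 0.00691), with no overlap between the stages. Of all 6875 contacts tested, 4.58% were called lower. Before scaling, each E16.5 value lay below each E12.5 value in 7.87% of them. The Id3 call was lost without E12.5 replicate 2 (−0.70), with DESeq2 and with the expected count as an offset (−0.59). The bin at 80 kb was listed in E16.5 replicate 1 with 47 read pairs and in E12.5 replicate 1 with 39. The bin at 90 kb, which holds the start of Rpl11, was listed in E16.5 replicate 1 alone with 69.

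Id1 had no contact listed in all 4 libraries. It lies at chr2:152736251-152737410, and both of its partner bins overlap Bcl2l1, which encodes an inhibitor of apoptosis and has its RefSeq start in them. The bin at 100 kb, chr2:152830001-152840000, had 63 and 67 read pairs at E16.5 and 56 in E12.5 replicate 2, and was not listed in E12.5 replicate 1. The bin at 90 kb was listed in E16.5 replicate 2 alone, with 52 read pairs. Apart from Id1, the bin at 100 kb had 11 and 11 listed interactions at E16.5 and 8 and 8 at E12.5.

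The gene-end bins whose numbers over the 4 libraries were most like those of Id2, by Euclidean distance between their scaled log2 numbers over 2379 bins, were those of Nrp1, Ephb1 and Adgrb1, at 0.147, 0.548 and 0.580. Nrp1 had 56 and 60 interactions at E16.5 and 20 and 15 at E12.5. The bins most like that of Id4 were those of Tle3, Enc1 and Sox11, at 0.240, 0.331 and 0.372. Tle3 had 61 and 62 at E16.5 and 37 and 50 at E12.5. These distances are descriptions over 4 libraries.

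Id proteins bind E proteins, the partners of proneural bHLH factors, and the genes for both kinds of factor were looked up. Neither of the tested E protein genes passed and 5 of 8 tested proneural or neuronal bHLH genes did, beside 9.68% of all bins tested. Tcf4, an E protein, had 21 and 19 interactions at E16.5 and 7 and 11 at E12.5 (edgeR adjusted p = 0.591), Tcf12 had 7 and 14 at E16.5 and 1 and 6 at E12.5 (edgeR adjusted p = 0.507), and Tcf3, with 2 and 3 at E16.5 and 2 and 1 at E12.5, was not tested. Of 17 proneural and neuronal bHLH genes, 6 were listed nowhere, 3 rose and 2 fell, with a median log2 change of −0.82 beside 0.19 over all bins. The 3 that rose are neuronal differentiation factors. Neurod6 had 21 and 15 at E16.5 and none at E12.5 (edgeR adjusted p = 0.0127), Neurod1 had 9 and 15 at E16.5 and none at E12.5 (edgeR adjusted p = 0.0147), and Bhlhe22 had 32 and 18 at E16.5 and 3 and 1 at E12.5 (edgeR adjusted p = 0.0254). Among those that fell, Olig2, a factor of neural and oligodendrocyte progenitors, had 2 and 0 at E16.5 and 8 and 7 at E12.5 (edgeR adjusted p = 0.0229). Neurod6, Neurod1, Bhlhe22 and Olig2 reached the sum of at least 10 only through the stage where they were high. Their calls, and so the 5 of 8, are therefore partly built in by the filter.

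Of 7 Hes and Hey genes, whose products are bHLH repressors in the Notch pathway, 5 were tested and 1 fell. Of all bins tested, 9.68% were called, 2.21% as lower. The median log2 change of the 5 was 0.24, beside 0.19 over all bins. Hes1 had 26 and 25 interactions at E16.5, against 31 and 33 at E12.5, with no overlap (log2 change −1.07, edgeR adjusted p = 0.0178). Hes3, in a bin shared with Icmt, had 4 and 6 at E16.5 and 2 and 1 at E12.5 (edgeR adjusted p = 0.548), and Hey1 had 3 and 4 at E16.5 and 6 and 1 at E12.5 (edgeR adjusted p = 0.642).

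None of the tested genes of the BMP pathway, which acts upstream of the Id genes, passed, beside 9.68% of all bins tested. So few genes were tested that the absence of a call says little. Of 17 BMP ligands, receptors and Smads, 5 were listed nowhere and 3 were tested. Their median log2 change was 1.61, beside 0.19 over all bins. All 3 reached the sum of at least 10 only through the E16.5 libraries, so the filter favours a positive median. The receptor gene Acvr1, in a bin shared with Upp2, had 7 and 10 at E16.5 and 1 and 2 at E12.5 (edgeR adjusted p = 0.136). The receptor gene Acvr2a had 10 and 6 at E16.5 and 3 and 0 at E12.5 (edgeR adjusted p = 0.262), and the ligand gene Bmp2 had 9 and 8 at E16.5 and 3 and 2 at E12.5 (edgeR adjusted p = 0.399). The summed interactions of these 17 genes were 38 and 45 at E16.5, against 14 and 5 at E12.5.

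Of 11 BMP antagonists and feedback inhibitors that could be placed, 4 were tested and none passed, beside 9.68% of all bins tested. The median log2 change of the 4 was −0.06, beside 0.19 over all bins. Smad7, a feedback inhibitor, had 19 and 31 at E16.5 and 8 and 8 at E12.5 (edgeR adjusted p = 0.142). Smad6, another, had 2 and 2 at E16.5 and 4 and 3 at E12.5 (edgeR adjusted p = 0.266), and the secreted antagonist Nog had 9 and 14 at E16.5 and 7 and 10 at E12.5 (edgeR adjusted p = 0.746).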

How the data were processed

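Each of the 4 libraries had its own list of interactions between bins of 10 kb on 19 autosomes. Per the file headers, the authors give each interaction an observed count (read pairs), a modelled expected count (a signal that is not whole), an FDR (a q-value), and for each cluster a size, a summit mark and a −log10 p. The authors used BWA, SAMtools and mm10, per the submitters' processing notes; the caller, the versions and what the expected count corrects for are not given in these sources. Counts were used as deposited. The precision of each value is limited by the read pairs printed beside it, and PCR copies cannot be told apart.

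Genes were placed with a RefSeq table of GRCm38.p6. It covers 20661 autosomal protein-coding genes, whose ends fell in 30805 bins. Number (listed interactions per gene-end bin, sum of at least 10) and strength (read pairs of bin pairs listed in all 4 libraries) were each fitted over all features with edgeR 4.0.16 in R 4.3.3, with TMM scaling, the robust quasi-likelihood test, no covariate besides stage, and p-values adjusted by Benjamini-Hochberg at 0.05, and tested on simulated data. Each SE was taken as log2 change over the square root of F. Distances were compared with exact permutation tests in scipy 1.17.1. All changes were taken as E16.5 minus E12.5.

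The members and lists were chosen with earlier results of these data known. By the naming rule, up to 6 contacts per gene listed in all 4 libraries, up to 3 restricted to a stage, the 3 bins of nearest likeness, and for each list the members past the threshold and the 3 with the smallest p are given, except 1 list member that is not reported here; likeness used a prior count of 2. Replicates differed by more than counting noise (chi-square 1.75 times its degrees of freedom at E16.5 and 1.30 times at E12.5, for contacts averaging at least 40 read pairs).

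The alternatives were DESeq2 1.42.0, library totals without TMM, other filters, an FDR under 0.0001, all bins, gene bodies, lists cut to 16075 interactions, distances of at most 200 kb, read pairs summed per bin, each cluster once, a quasi-dispersion of at least 1, the expected count as an offset, a replicate block, and each library left out. Library totals were taken over the tested bins or contacts, not over all listed interactions.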

Additional observations from a re-analysis of the deposited data

How the results depend on the processing

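Of 2448 gene-end bins, 237 were called for number (183 higher, 54 lower), against 27 with DESeq2, 65 at an FDR under 0.0001, 17 within 200 kb, 576 over gene bodies, 81 with lists of equal length and 24 with a quasi-dispersion of at least 1. None passed in edgeR over all bins, with each cluster counted once, or with read pairs in place of interactions, where 939, 89 and 1349 had an unadjusted p under 0.05. Leaving out a library gave 0 (without E16.5 replicate 1; 450 at an unadjusted p under 0.05) to 143 calls. Of the calls, 77.2% were higher at E16.5 with TMM and 63.9% with library totals, where the median of all bins was 0.01 in place of 0.19. For strength, 719 of 6875 contacts were called, against 98 with DESeq2, 468 at an FDR under 0.0001, 36 with the expected count as an offset (1 higher and 35 lower, against 404 higher and 315 lower) and 274 to 537 with a library left out. The Id2 log2 change in number, 0.93, was no longer called with DESeq2 (0.97), at an FDR under 0.0001 (1.12), over all bins (1.02), with library totals (0.75), with lists of equal length (1.00), with a quasi-dispersion of at least 1 (0.93), with read pairs (1.50) or with any library left out (0.79 to 1.08), and was −0.34 with each cluster counted once. Over its alternatives its adjusted p ran from 0.00669 to 0.854, and within 200 kb it was not tested. Id4 was not called for number under any alternative (log2 −1.22 to −0.12). Changes of sign in strength were Id2 at 970 kb with the offset (−0.32), Id2 at 380 kb without E12.5 replicate 2 (0.29; range over libraries left out −0.46 to 0.29), Id4 at 600 kb upstream without E16.5 replicate 2 (0.16; range −0.74 to 0.16) and Id4 at 200 kb downstream without E12.5 replicate 1 (0.04; range −0.17 to 0.04). The distance difference changed sign for Id2 with lists of equal length (65 kb), for Id4 with cluster summits alone (−20 kb) and for Id3 without E16.5 replicate 1 (−2.5 kb; range −2.5 to 7.5 kb, and 2.5 kb with all libraries). The cause of these changes was not tested. The replicate numbers are shared by the stages, and the sources used here do not say whether they pair the libraries. Deviations of replicate 1 correlated at r = 0.0992 across 2448 bins, which are not independent, so this value cannot decide it. With the replicate block, 384 bins and 939 contacts were called, against 237 and 719 without it. The Id2 change in number was 0.94 with the block. Low read pairs limit the contacts near the authors' threshold, and unlisted pairs have no value.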

Other observations

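The deserts beside Id2 and Id4 are closed on the far side by paralogous genes, Rnf144a beyond that of Id2 and Rnf144b beyond that of Id4, which encode RING-type ubiquitin ligases. The end bin of Rnf144a with the most listed interactions had 0 and 1 at E16.5 and 0 and 0 at E12.5. The bins at the ends of Rnf144b had none in any library. On the other side of Id2, the end bin of Kidins220 with the most had 3 and 1 at E16.5 and 1 and 2 at E12.5.

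Among interactions with a bin in the 1000 kb on the partner side of Id2, 54 and 55 interactions touched the Id2 bin at E16.5 and 19 and 15 at E12.5, while 19 and 18 at E16.5 and 5 and 4 at E12.5 did not touch it. In the same span of Id4, 53 and 54 touched the Id4 bin at E16.5 and 39 and 44 at E12.5, while 12 and 3 at E16.5 and 16 and 13 at E12.5 did not touch it. Interactions that did not touch the gene were thus more numerous at E16.5 beside Id2, as the lists as a whole were, and fewer beside Id4. The counts are small and unscaled, and beside Id4 the nearest values of the stages are 12 and 13. No share over other spans was taken, and the difference between the spans was not tested.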
